A study of Rattus norvegicus with 8 samples.

Results

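Calcium cycling by the sarcoplasmic reticulum was described here through 10 genes measured in rat left ventricle: Ryr2, Trdn, Asph, Casq2, Jph2, Atp2a2, Pln, Sln, Slc8a1 and Camk2d. Each was taken by its symbol, from probe sets annotated with exactly 1 gene. Each gene had 1 probe set, so 10 of the 28826 probe sets on the array, and 10 of 14497 named genes, were covered. All hearts came from female rats in late pregnancy and had gone through ischemia, the interruption of blood supply, and then reperfusion. Reperfusion was with the treatment labelled ILPD for 5 arrays and with placebo, which the design text calls vehicle, for 3. The design text writes ITLD for the treatment and gives 1 bolus of 5 mg/kg, and the series title names Intralipid, an intravenous lipid emulsion; that these names stand for 1 treatment is an assumption. Strain and age are not given in the sources used here. Arrays carry replicate numbers, but no label says that each came from its own animal. Each p-value therefore rests on the spread among these arrays, which may be partly technical.

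In a heart muscle cell, each beat begins when calcium entering through surface channels opens ryanodine receptors in the facing membrane of the sarcoplasmic reticulum, the internal calcium store. The released calcium drives contraction, and it is cleared mainly by the SERCA pump back into the store and by the sodium-calcium exchanger out of the cell. Phospholamban and sarcolipin hold the pump back, and kinases such as CaMKII and PKA adjust both release and uptake. During reperfusion, overload with calcium and leak from the store are known contributors to arrhythmia and cell death in this tissue.

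Values are log2 expression as deposited, so a difference of 1 is a 2-fold change, and a probe set was called when its adjusted p in limma (Benjamini-Hochberg, all 28826 probe sets) was under 0.05. Array medians were 7.16 to 7.20 in ILPD and 7.08 to 7.14 in placebo, and the correlation between 2 arrays of 1 group was 0.991 to 0.995. The number of arrays limits the precision. Brighter probe sets tended to be lower in ILPD: the median difference of ILPD minus placebo was 0.06 for probe sets with a mean of 7 to 8, -0.10 for those of 10 to 11, and -0.15 for those of 12 to 13. This matters for calcium cycling genes, of which 4 had a mean above 12 and only Sln had one below 9.

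No difference between ILPD and placebo hearts passed the test for any of the 10 genes. A negative difference was seen in 9 of 10, against 41.5% of all probe sets. That share was 45.1% for probe sets with a mean of 8 to 9, 61.8% for 9 to 10 and 72.6% for 10 to 11. These ranges held 1, 2 and 3 of the 10 genes. By limma 0 of 10 were called, against 2.81% of all probe sets, and 3 of 10 (Slc8a1, Atp2a2 and Jph2) had an unadjusted p under 0.05, against 18.3% of all probe sets. The median difference was -0.11, beside 0.02 over all probe sets. Differences ran from -0.26 for Jph2 to 0.53 for Sln, and no gene had groups free of overlap. Of all probe sets, 12.4% had groups without overlap, 4.42% with ILPD lower and 7.95% with ILPD higher. The signs depended on the scaling: 7 of 10 differences were negative after a further quantile normalization and 5 of 10 after cyclic loess normalization, when the median over the 10 genes was -0.02 and 0.00. Defining genes of ventricular muscle were bright on every array, and all 12 of that marker list had a negative difference too, with a median of -0.16 and 1 call, Tnnc1; the mean level of that list was 13.38 to 13.53 in ILPD and 13.60 to 13.65 in placebo. All 12 markers had a mean above 12. Of all probe sets, 89.3% of those of 12 to 13 and 92.3% of those of 13 or more were negative. In tissue RNA, fewer heart muscle cells and less of a transcript per cell cannot be told apart. The part of these markers and of the brightness trend in the differences was not tested.

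**Figure D1:**
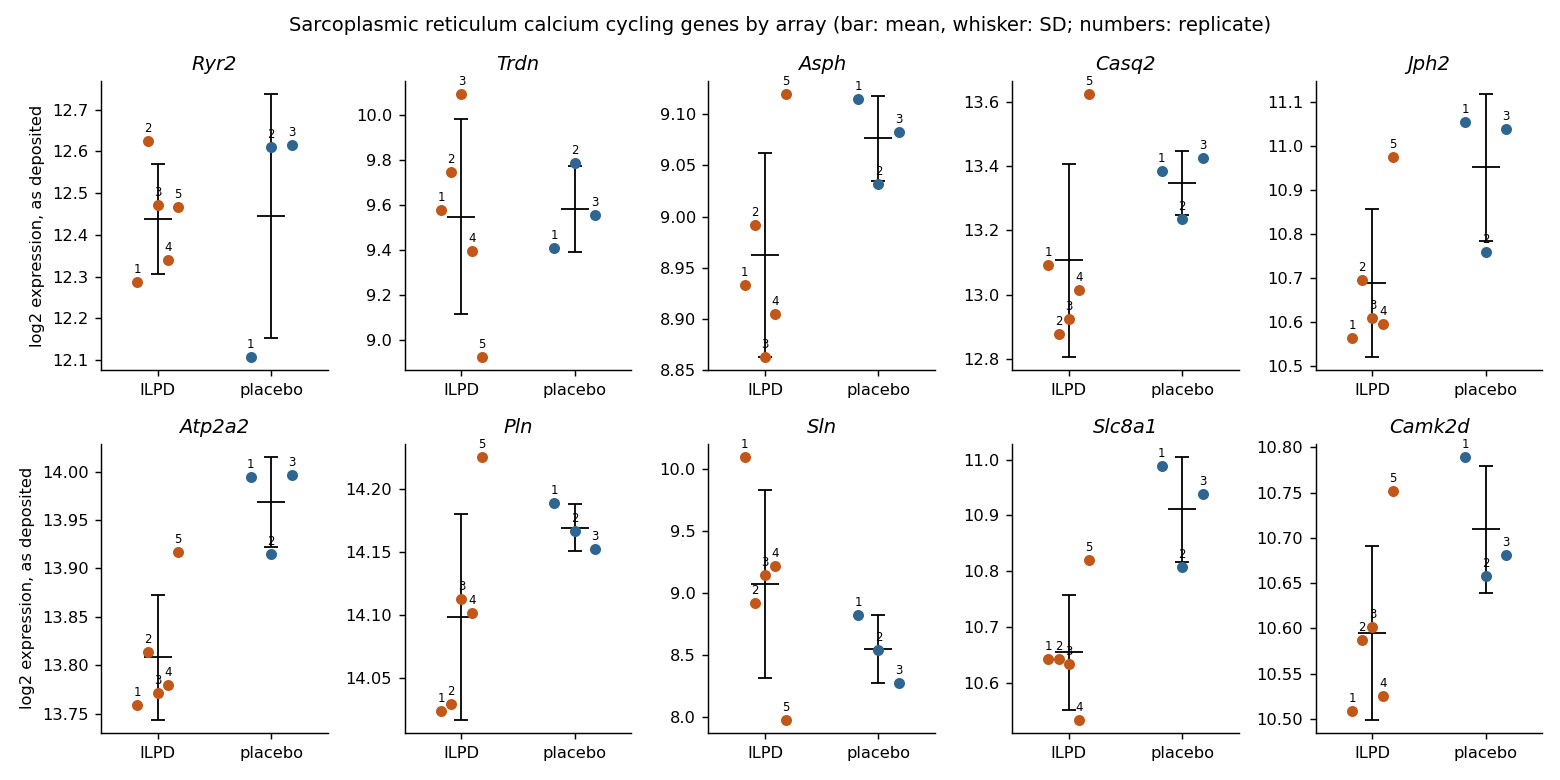
Log2 expression as deposited of the 10 calcium cycling genes on each array, ILPD on the left and placebo on the right of each panel; points are arrays with their replicate number, bars are means and whiskers SDs. ILPD array 5 is the highest ILPD array for 7 of the 10 genes, and the groups overlap in every panel.

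**Figure D2:**
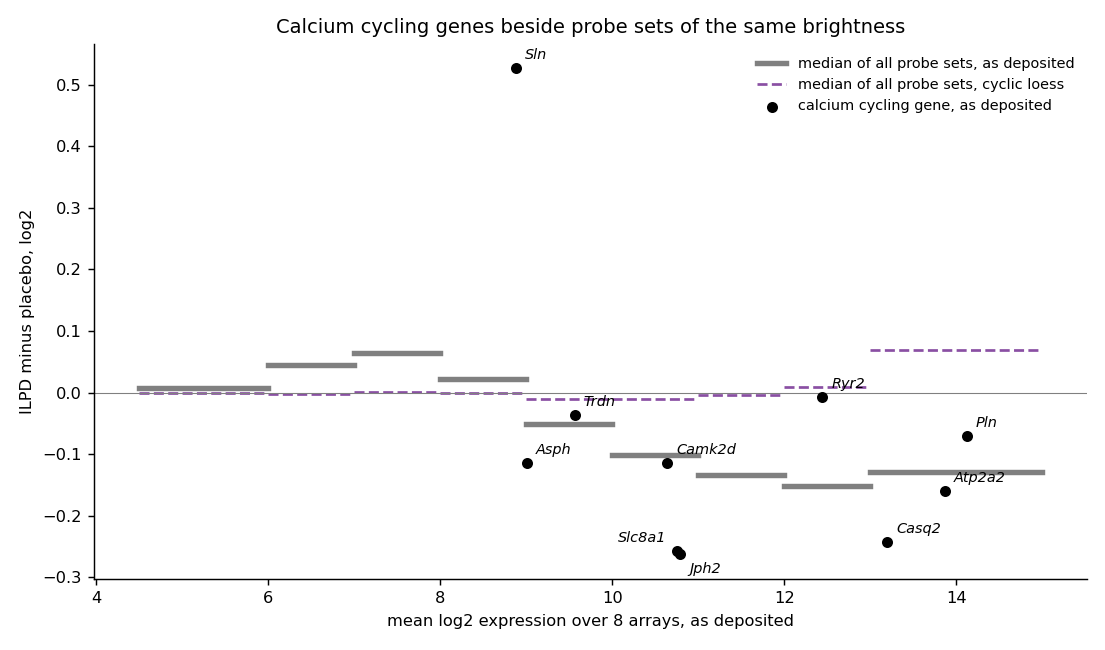
Difference of ILPD minus placebo (log2) against mean log2 expression over the 8 arrays; points are the 10 calcium cycling genes, grey bars the median of all probe sets in each range of brightness as deposited, dashed lines the same after cyclic loess normalization. Casq2, Jph2, Slc8a1 and Asph lie below the median of probe sets as bright as they are, and Sln, Ryr2 and Pln above it, Sln the furthest. Atp2a2 and Camk2d lie slightly below it and Trdn slightly above.

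The DNA just before the start of 4 of these genes is shown because they had the most negative differences: Jph2, Slc8a1, Casq2 and Atp2a2. RefSeq promoter windows of build GRCr8 were matched by symbol for 8 of the 10 genes, Sln and Asph having no entry in the table used, and the 250 bases before the RefSeq start are given 5′ to 3′ in lower case, with matches to any of 6 searched motifs in capitals.
Jph2, chr3:172477922-172478171, minus strand: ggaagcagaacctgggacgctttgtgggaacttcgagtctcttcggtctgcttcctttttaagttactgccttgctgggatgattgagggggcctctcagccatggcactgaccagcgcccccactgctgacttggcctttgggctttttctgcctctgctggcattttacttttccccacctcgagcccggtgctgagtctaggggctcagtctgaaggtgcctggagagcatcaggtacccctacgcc
Slc8a1, chr6:19023309-19023558, plus strand: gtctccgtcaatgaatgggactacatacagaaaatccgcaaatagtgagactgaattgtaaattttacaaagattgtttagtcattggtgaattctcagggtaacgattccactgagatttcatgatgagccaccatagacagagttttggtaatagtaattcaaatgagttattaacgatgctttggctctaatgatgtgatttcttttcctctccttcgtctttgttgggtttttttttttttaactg
Casq2, chr2:192214306-192214555, plus strand: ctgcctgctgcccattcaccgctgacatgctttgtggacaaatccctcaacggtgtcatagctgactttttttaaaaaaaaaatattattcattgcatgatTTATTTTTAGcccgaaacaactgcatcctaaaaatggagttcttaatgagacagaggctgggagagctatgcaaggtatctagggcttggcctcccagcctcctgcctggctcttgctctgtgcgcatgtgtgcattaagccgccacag
Atp2a2, chr12:39733269-39733518, plus strand: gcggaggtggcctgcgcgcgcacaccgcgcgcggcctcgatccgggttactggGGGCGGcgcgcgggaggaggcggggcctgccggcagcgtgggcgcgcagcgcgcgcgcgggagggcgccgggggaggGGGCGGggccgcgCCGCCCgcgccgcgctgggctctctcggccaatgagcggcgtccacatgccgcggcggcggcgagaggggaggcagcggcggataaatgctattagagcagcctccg
Both strands were searched for the GC box GGGCGG, the TATA box TATAAA, the GATA motif AGATAA, the M-CAT motif CATTCC, the nuclear receptor motif AGGTCA and the MEF2 consensus. Atp2a2 held 3 GC boxes, as did Ryr2 and Camk2d, and 32.4% of all 27457 promoter windows held at least 1. Casq2 held 1 match to the MEF2 consensus, which 3.07% of all windows held, and Ryr2 held 1 AGGTCA, found in 13.7% of all windows. The Jph2 and Slc8a1 windows held no match and so no capitals, and no matches overlapped in the other windows shown. The GATA, M-CAT and TATA motifs, found in 10.1%, 11.8% and 13.1% of all windows, were in none of the 8. Base composition differed widely, with 80% G and C in the Atp2a2 window, 57.2% in Jph2, 46.4% in Casq2 and 35.2% in Slc8a1, beside a median of 52% over all windows. These matches describe the letters and were not tested for binding.

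The release channel itself showed no difference that could be detected. Ryr2, which encodes the cardiac ryanodine receptor (probe set 10795796), had 12.29, 12.62, 12.47, 12.34 and 12.47 in ILPD hearts, against 12.11, 12.61 and 12.62 in placebo hearts. The spread within placebo came from array 1, which was lower than every other array of either group. The difference was -0.01 (SE 0.12, limma adjusted p = 0.984), with a 95% interval from -0.28 to 0.27. Its sign was not settled, since it was 0.15 after quantile and 0.15 after cyclic loess normalization and -0.18 without placebo array 1.

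Trdn encodes triadin, which links the ryanodine receptor to the calcium buffer calsequestrin (probe set 10717359), and it had 9.58, 9.75, 10.09, 9.40 and 8.92 in ILPD hearts, against 9.41, 9.79 and 9.56 in placebo hearts. ILPD arrays held both the highest and the lowest value. The difference was -0.04 (SE 0.22, limma adjusted p = 0.954), and it was 0.12 without ILPD array 5, the lowest. Asph (probe set 10875387) is a gene with several products, among them junctin, another anchor of the release complex, and an enzyme that hydroxylates aspartate; the probe set is not tied here to 1 of them. It had 8.93, 8.99, 8.86, 8.90 and 9.12 in ILPD hearts, against 9.11, 9.03 and 9.08 in placebo hearts. Only ILPD array 5 reached the placebo values. The difference was -0.11 (SE 0.07, limma adjusted p = 0.403).

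Casq2 encodes cardiac calsequestrin, the main calcium buffer inside the store (probe set 10817881). It had 13.09, 12.88, 12.92, 13.01 and 13.62 in ILPD hearts, against 13.39, 13.24 and 13.43 in placebo hearts. Array 5 of the ILPD group was above every placebo array, while the other 4 ILPD arrays were below every placebo array. Means were 13.11 ± 0.30 (SD, n = 5) in ILPD and 13.35 ± 0.10 (SD, n = 3) in placebo, a difference of -0.24 (SE 0.15, limma adjusted p = 0.441) with a 95% interval from -0.58 to 0.09. Without ILPD array 5 the difference was -0.37 (SE 0.07, limma adjusted p = 0.0343), and after cyclic loess normalization of all 8 arrays it was -0.06.

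Jph2 encodes junctophilin 2, which holds the store membrane against the surface membrane where release takes place (probe set 10851486). It had 10.57, 10.70, 10.61, 10.60 and 10.98 in ILPD hearts, against 11.06, 10.76 and 11.04 in placebo hearts. Again the 4 ILPD arrays other than array 5 were below all placebo arrays. The difference was -0.26 (SE 0.11, limma adjusted p = 0.223), a 1.20-fold lower level, with a 95% interval from -0.50 to -0.03. It was -0.16 after cyclic loess normalization and -0.33 without ILPD array 5.

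The pump and its main inhibitor were among the brightest transcripts on the array, and their small differences changed sign with scaling. Atp2a2 encodes SERCA2, the calcium pump of the store (probe set 10758555), and it had 13.76, 13.81, 13.77, 13.78 and 13.92 in ILPD hearts, against 13.99, 13.92 and 14.00 in placebo hearts. The groups met only where ILPD array 5 lay just above placebo array 2. Means were 13.81 ± 0.06 (SD, n = 5) in ILPD and 13.97 ± 0.05 (SD, n = 3) in placebo, a difference of -0.16 (SE 0.06, limma adjusted p = 0.165), that is 1.12-fold. That difference was -0.01 after quantile and 0.04 after cyclic loess normalization. It stood beside a median of -0.13 over the 208 probe sets with a mean of 13 or more, of which 92.3% were negative.

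Pln encodes phospholamban, which slows SERCA2 until it is phosphorylated (probe set 10830174). It had 14.02, 14.03, 14.11, 14.10 and 14.23 in ILPD hearts, against 14.19, 14.17 and 14.15 in placebo hearts. ILPD array 5 was the highest of all 8 and the other ILPD arrays the lowest. The difference was -0.07 (SE 0.06, limma adjusted p = 0.586), with a 95% interval from -0.20 to 0.06; it was 0.03 after quantile and 0.14 after cyclic loess normalization. Taken within each array, Pln minus Atp2a2 was higher in ILPD than in placebo by 0.09, with an SD of 0.05 within each group, and the groups overlapped; the same value was 0.10 after cyclic loess and 0.03 after quantile normalization. A difference of this kind shows unequal change at most and sets no level of 1 transcript against the other.

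Sln encodes sarcolipin, a second small inhibitor of SERCA pumps that in rodents is far more abundant in atria than in ventricles (probe set 10910047). It had 10.10, 8.92, 9.15, 9.22 and 7.98 in ILPD hearts, against 8.82, 8.54 and 8.28 in placebo hearts. ILPD arrays 1 to 4 were above all placebo arrays and ILPD array 5 was below them, so this gene varied more between arrays than any other of the 10. Means were 9.07 ± 0.76 (SD, n = 5) in ILPD and 8.55 ± 0.27 (SD, n = 3) in placebo, a difference of 0.53 (SE 0.37, limma adjusted p = 0.501), with a 95% interval from -0.29 to 1.34. Single arrays moved it: the difference was 0.27 without ILPD array 1 and 0.80 without ILPD array 5. Within arrays, Sln minus Atp2a2 was higher in ILPD by 0.69, with SDs of 0.82 in ILPD and 0.28 in placebo and with overlap.

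Because sarcolipin marks atrial muscle, the 6 measured genes of an atrial marker list were set beside it. Of these, 0 were called, 4 had a negative and 2 a positive difference, and the mean level of the list was 9.27 to 9.86 in ILPD and 9.58 to 9.89 in placebo. Myl7, the atrial myosin light chain, had 11.90, 11.54, 11.04, 11.87 and 10.003 in ILPD hearts, against 10.83, 13.18 and 11.85 in placebo hearts. Bmp10, a growth factor of atrial muscle, had 6.91, 6.65, 6.24, 6.20 and 6.08 in ILPD hearts, against 6.16, 6.25 and 6.17 in placebo hearts. Like Sln, both were highest among ILPD arrays on array 1 and lowest on array 5, and over the whole list array 1 was the highest ILPD array for 5 of 6 genes and array 5 the lowest for 4 of 6. Stard10 was highest on array 4, Nppa lowest on array 2 and Kcnj3 lowest on array 4. Myl7 was highest of all on placebo array 2, where Sln was not high. How far atrial tissue in the samples bears on Sln was not tested.

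**Figure D3:**
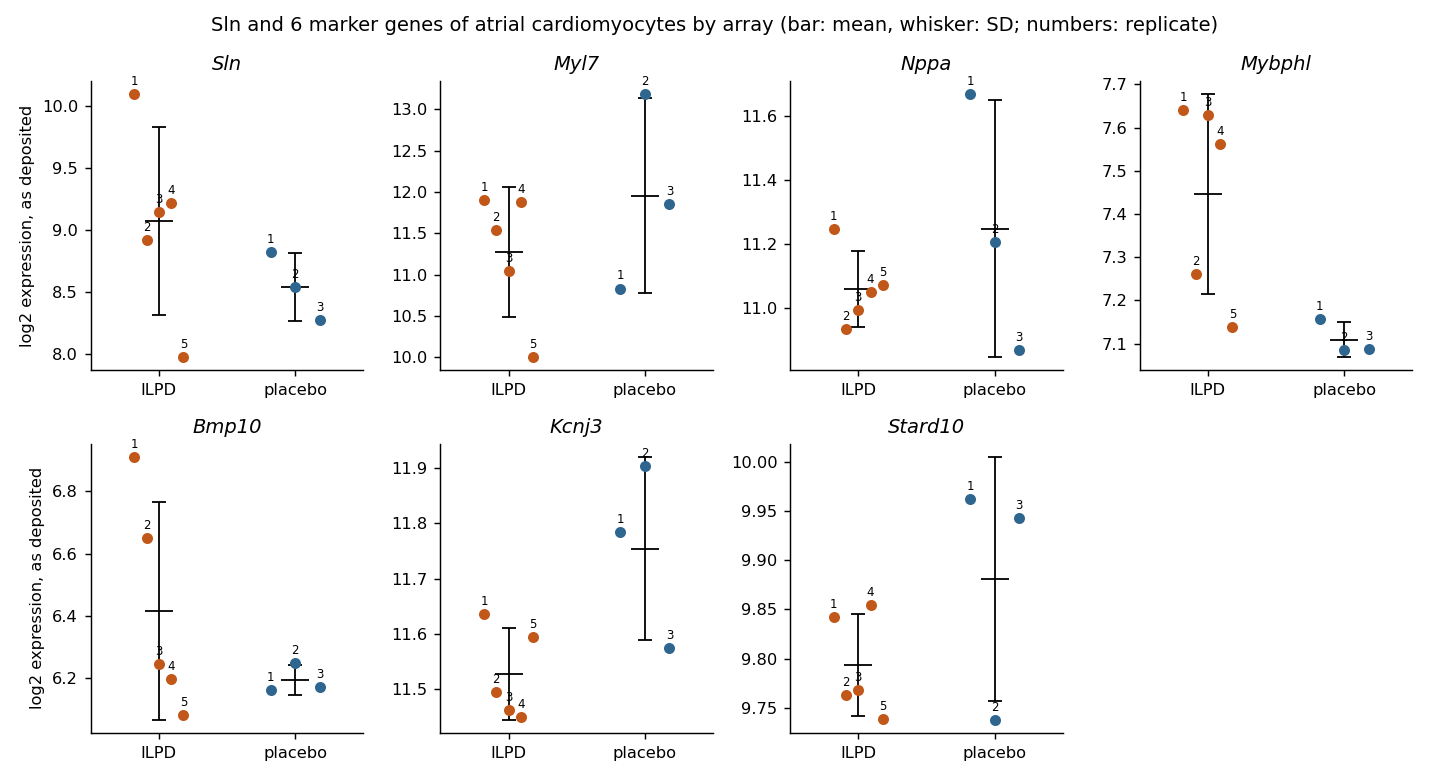
Log2 expression as deposited of Sln and of 6 marker genes of atrial heart muscle on each array, ILPD on the left and placebo on the right; points are arrays with their replicate number, bars are means and whiskers SDs. Sln runs from 7.98 on ILPD array 5 to 10.10 on ILPD array 1, and Myl7 from 10.003 on ILPD array 5 to 13.18 on placebo array 2.

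Slc8a1, the sodium-calcium exchanger of the surface membrane, came nearest to the threshold. Its product exports calcium during relaxation and can run backwards during reperfusion (probe set 10888110). It had 10.64, 10.64, 10.63, 10.53 and 10.82 in ILPD hearts, against 10.99, 10.81 and 10.94 in placebo hearts. The overlap rested on ILPD array 5 and placebo array 2, which were 10.82 and 10.81. Means were 10.65 ± 0.10 (SD, n = 5) in ILPD and 10.91 ± 0.09 (SD, n = 3) in placebo, a difference of -0.26 (SE 0.07, limma adjusted p = 0.0939), a 1.19-fold lower level with a 95% interval from -0.42 to -0.10. The sign was kept in all 14 alternatives, with differences from -0.31 to -0.15, and 1 of the 14 gave a call, that without ILPD array 5 (-0.30, limma adjusted p = 0.0431). Within arrays, the difference of ILPD minus placebo in Slc8a1 minus Atp2a2 was -0.10 as deposited. SDs were 0.06 in ILPD and 0.05 in placebo, with overlap. The difference was -0.15 after quantile and -0.20 after cyclic loess normalization, both without overlap but with narrow gaps. ILPD array 5 and placebo array 2 had -3.048 and -3.045 after quantile, and -3.092 and -3.071 after cyclic loess normalization.

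Camk2d encodes the main cardiac form of CaMKII, a kinase that phosphorylates the ryanodine receptor and phospholamban (probe set 10818920). It had 10.51, 10.59, 10.60, 10.53 and 10.75 in ILPD hearts, against 10.79, 10.66 and 10.68 in placebo hearts. Once more ILPD array 5 was the one ILPD array within the placebo range. The difference was -0.11 (SE 0.07, limma adjusted p = 0.413), close to the median of -0.10 for probe sets as bright, and it was -0.01 after cyclic loess normalization. Only transcripts were measured, not kinase activity or phosphorylation.

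Across these genes, ILPD array 5 often stood apart from the other 4 ILPD arrays, a description that was not tested. ILPD array 5 was the highest ILPD array for 7 of 10 genes and the lowest for Trdn and Sln. Its value lay within the placebo range for 5 genes, whereas each of the other 4 ILPD arrays lay below that range for at least 7. Among placebo arrays, array 2 was the lowest for 6 of 10 genes. With ILPD array 5 set aside, a choice made after its values were seen, 7 of 10 genes had ILPD arrays wholly below placebo (Asph, Casq2, Jph2, Atp2a2, Pln, Slc8a1 and Camk2d), against 6.92% of all probe sets, and 1, Sln, had them wholly above, against 9.82%. Limma then called 2 of 10, Casq2 and Slc8a1, both lower in ILPD, against 3.38% of all probe sets in either direction and 1.30% with ILPD lower. In those 7 genes array 5 was the only ILPD array not below placebo, and in Sln the only one not above it. The loss of overlap therefore follows from the choice, and the calls rest on the same choice. The shares of all probe sets are not matched for brightness. On ventricular markers ILPD array 5 also had the highest mean level among ILPD arrays, 13.53, and on neutrophil markers the lowest, 8.66. ILPD array 3 was nearly as low on the neutrophil list, 8.72. That list was 8.66 to 9.75 in ILPD and 7.95 to 8.52 in placebo, with 7 of 7 differences positive and 0 called. ILPD array 5 was the highest of all arrays on fibroblast markers, 10.53, and on lymphocyte markers, 7.18, and the lowest on atrial markers, 9.27. On skeletal muscle, smooth muscle, endothelial, monocyte and macrophage, and erythroid markers it was neither highest nor lowest of the ILPD arrays. The part of any marker list in the pattern of array 5 was not tested.

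**Figure D4:**
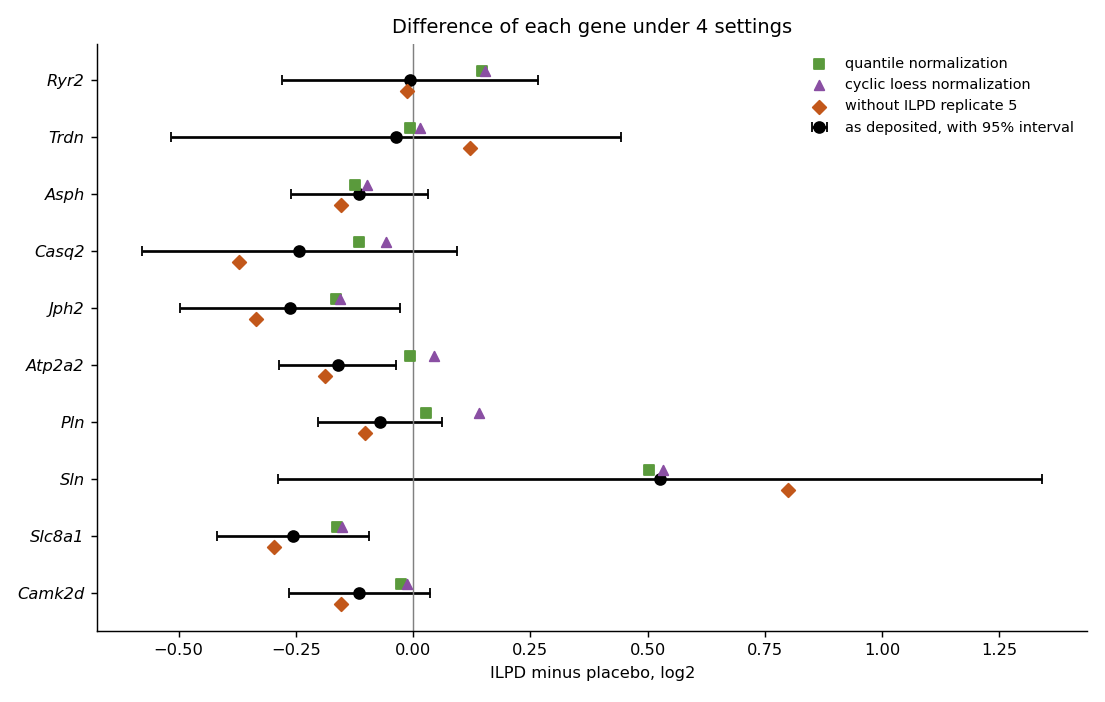
Difference of ILPD minus placebo (log2) for each calcium cycling gene: black points with 95% intervals as deposited, squares after quantile normalization, triangles after cyclic loess normalization, diamonds without ILPD array 5. Ryr2, Trdn, Atp2a2 and Pln lie at or below 0 as deposited and above 0 after cyclic loess. Asph, Casq2, Jph2, Slc8a1 and Camk2d stay below 0 in all 4 settings.

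Among other genes of calcium handling, every call was lower in ILPD. Of 87 such genes listed by role, 78 were measured. Of the 78, 4 fell and 0 rose, against 0.857% and 1.96% of all probe sets. A negative difference was seen in 51, against 41.5% of all probe sets, and the median was -0.07, beside 0.02. These shares are not matched for brightness. Akap6, Tmem38a and Rcan2, called and described below, had means of 11.2 to 12.7, and Stim2 had 8.91. The median difference of all probe sets was -0.13 for those of 11 to 12 and -0.15 for those of 12 to 13. Stim2, a sensor of calcium in the store that opens surface entry channels (probe set 10776992), had 8.63, 8.74, 8.86, 8.75 and 8.73 in ILPD hearts, against 9.24, 9.14 and 9.19 in placebo hearts. The groups did not overlap, and the difference was -0.45 (SE 0.06, limma adjusted p = 0.00759), a 1.36-fold fall. Stim1, the related sensor, had a difference of -0.01 (limma adjusted p = 0.965); the difference between the 2 sensors was not tested.

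Akap6, a scaffold that brings PKA to the ryanodine receptor (probe set 10884585), had 11.08, 11.10, 10.88, 10.89 and 11.13 in ILPD hearts, against 11.36, 11.40 and 11.56 in placebo hearts. It fell by 0.43 (SE 0.08, limma adjusted p = 0.0258), without overlap. Tmem38a, the TRIC-A channel that carries potassium into the store as calcium leaves (probe set 10790651), had 12.05, 11.97, 12.03, 11.93 and 12.06 in ILPD hearts, against 12.26, 12.31 and 12.27 in placebo hearts. Its fall was small but steady across arrays, -0.27 (SE 0.05, limma adjusted p = 0.0282). Rcan2, which inhibits the calcium-activated phosphatase calcineurin (probe set 10926658), had 12.64, 12.61, 12.55, 12.63 and 12.74 in ILPD hearts, against 12.91, 12.88 and 12.86 in placebo hearts, a difference of -0.25 (SE 0.06, limma adjusted p = 0.0450). The number called among the 78 was 1 without ILPD array 4 or without any 1 placebo array, and 2 without ILPD array 2 or 3. Over the 14 alternatives the call held in 13 for Stim2, 9 for Akap6, 4 for Tmem38a and 3 for Rcan2. After cyclic loess normalization the difference was -0.12 for Tmem38a and -0.08 for Rcan2, and neither was called.

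By role, the group listed here under calcium storage in the lumen (Hrc, Calr, Canx, Stc1 and Stc2) had the most negative median of the 9. It was -0.26 over 5 measured genes, with 0 called. Hrc, Calr and Canx, the most negative, had means of 11.1 to 12.4. The median over all probe sets was -0.13 for those of 11 to 12 and -0.15 for those of 12 to 13. In this group Calr, the chaperone calreticulin, which also binds calcium, had 11.68 ± 0.14 (SD, n = 5) in ILPD and 12.01 ± 0.16 (SD, n = 3) in placebo, a difference of -0.34 (limma adjusted p = 0.0894) without overlap, which was -0.20 after cyclic loess normalization. Among other release channels and the potassium channels of the store that accompany release, 1 of 7 fell, the potassium channel Tmem38a, and no calcium release channel was called. Of that group Ryr3, a ryanodine receptor known from brain, had the largest difference, 0.27 (limma adjusted p = 0.0910); it was called without ILPD array 1 (0.32, limma adjusted p = 0.0472). Kinase, calcineurin and phosphodiesterase genes had 14 of 15 differences negative and 1 call (Rcan2), where 41.5% of all probe sets, 72.6% of those with a mean of 10 to 11 and 81.2% of those of 11 to 12 were negative. Prkar1a, a regulatory subunit of PKA, had the largest at -0.29 (limma adjusted p = 0.0740), and -0.15 after cyclic loess normalization. Phosphatase genes had 9 of 10 negative and 0 called, with the glycogen-targeting subunit Ppp1r3a at -0.24 (limma adjusted p = 0.186). Most of them had means above 10, where the shares just given apply, and 89.3% of probe sets of 12 to 13 were negative.

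Voltage-gated channel subunits and T-tubule genes had 9 of 17 negative differences and 0 called; Cacna1h, a T-type channel, had the largest at -0.28 (limma adjusted p = 0.445), which was -0.46 without placebo array 2 and -0.14 without placebo array 3. Cacna1c, the L-type channel that triggers release, had -0.04 (limma adjusted p = 0.854). Other pumps had a median of -0.00 over 7 genes and 0 called, with the Golgi pump Atp2c1 at -0.23 (limma adjusted p = 0.142). Sodium-calcium exchangers other than Slc8a1 had 4 of 4 positive differences and 0 called, the largest being 0.08 for the mitochondrial exchanger Slc8b1 (limma adjusted p = 0.742). Their means ran from 6.13 for Slc8a3 to 7.92 for Slc24a3. Of all probe sets, only 26.8% of those of 6 to 7 and 27.5% of those of 7 to 8 were negative. Quantile normalization turned the Slc8b1 difference to -0.0022, and leaving out ILPD array 5 or placebo array 3 gave 0.02 or 0.01.

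**Figure D5:**
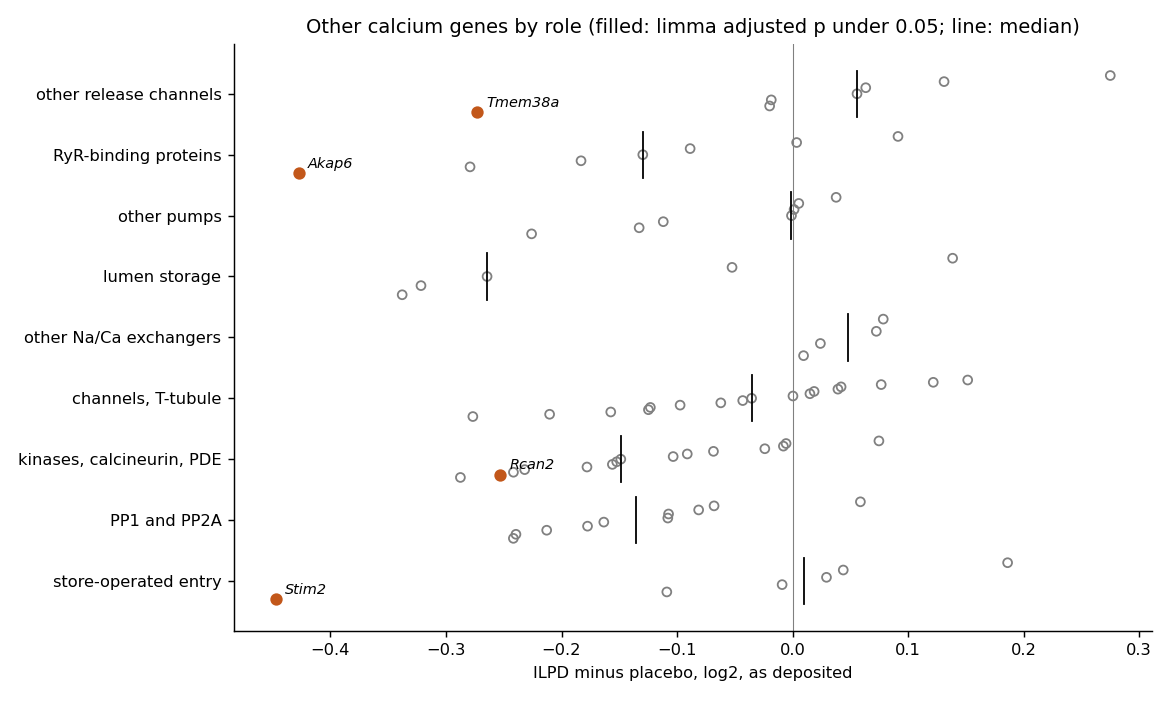
Difference of ILPD minus placebo (log2, as deposited) for 78 other calcium genes, grouped by role; each point is a gene, filled where the limma adjusted p was under 0.05, and vertical lines are group medians. The 4 called genes, Stim2, Akap6, Tmem38a and Rcan2, all lie below 0.

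The genes whose values over the 8 arrays were most like those of 4 calcium cycling genes, out of 14496 others, are given as a description. For Atp2a2 these were Fndc5, Celf1 and Nucb1 (Pearson r = 0.991, 0.990 and 0.984). For Pln they were Cyb5r3, Zdhhc8 and Kmt5a (0.978, 0.957 and 0.956), for Sln Specc1, Cyp7b1 and Serpinb2 (0.959, 0.956 and 0.941), and for Ryr2 Acer1, Wtip and Or8u8l1 (0.924, 0.923 and 0.915). Such values are the highest of many over few arrays that share a treatment and a brightness trend.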

How the data were processed

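Total RNA of left ventricle was hybridised to 8 Affymetrix arrays as biotin-labelled cRNA, per the labels' protocols. The values used are log2 expression per probe set as deposited by the authors; the submitters' processing notes name R 2.14.2, and the background correction and normalization are not given in the sources used here. Groups came from sample titles. Gene names came from the platform annotation, updated by gene ID through the RefSeq table of GRCr8: 15209 probe sets had 1 symbol, 306 several and 13311 none here. For genes outside the 10, the brightest probe set stood for the gene.

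All 28826 probe sets were fitted in R 4.3.3 by limma 3.58.1 (lmFit, then eBayes). The test set 5 ILPD against 3 placebo arrays, two-sided, with Benjamini-Hochberg adjustment. The method was tried on simulated data with independent noise, no brightness trend and changes larger than those of the 10 genes. That trial does not cover smaller changes or arrays with such a trend. Named genes beyond the 10 were those called, or with the largest difference of their role, in a list of 87 calcium genes, and the 3 most correlated genes of Ryr2, Atp2a2, Pln and Sln. Stim1, Cacna1c, Hrc, Canx, Stc1, Stc2, Slc8a3, Slc24a3, Tnnc1 and the atrial markers were named after their values were seen. The members, lists and alternatives were chosen with earlier results of these data known. The shared replicate numbers gave no clear sign that they pair the arrays. Deviations of same-numbered arrays correlated at 0.22, -0.06 and -0.10, and those of arrays with unlike numbers at -0.17 to 0.25. So few values cannot exclude pairing. Figures were drawn with matplotlib 3.10.9.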

Additional observations from a re-analysis of the deposited data

Results flagged for a closer look

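Casq2 on ILPD array 5 was 13.62, far from the next ILPD array at 13.09: the gap was 0.710 of the whole range of the 5 arrays, just over the limit of 0.71 used for 5 values. This was 1 of 21 genes looked at in this way, and chance gives about 1 in 20.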

How the results depend on the processing

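The fits were repeated after quantile or cyclic loess normalization, with an intensity trend and robust prior, with array weights, without the dimmest 40%, with a replicate block, at a threshold of 0.1 and with each array left out. Leaving out 1 array gave 0 to 2 calls among the 10 genes, with 2 only without ILPD array 5, and 172 (without placebo array 2) to 975 (without ILPD array 5) over all probe sets. Among the 78 others it gave 1 to 6: 6 without ILPD array 5, 5 without ILPD array 1, 2 without ILPD array 2 or 3, and 1 without ILPD array 4 or any placebo array. A threshold of 0.1 gave 1, 8 and 1756. Calls among the 78 were 2 with the trend, 2 after quantile and 2 after cyclic loess normalization. With the replicate block they were 0, beside 459 over all probe sets, and Stim2 had a difference of -0.45 (limma adjusted p = 0.0586); quantile normalization gave 484. Signs turned for Ryr2 (0.15 after quantile, 0.15 after cyclic loess, 0.0498 with array weights, 0.0161 with the replicate block, and -0.18 to 0.0786 with 1 array left out), for Trdn (0.0139 after cyclic loess, 0.0332 with array weights, 0.22 with the replicate block, -0.17 to 0.12 with 1 array left out), for Atp2a2 (0.0434 after cyclic loess), for Pln (0.0280 after quantile, 0.14 after cyclic loess) and for Slc8b1 (-0.0022 after quantile). The cause was not tested. Asph, Casq2, Jph2, Slc8a1, Camk2d and Sln kept their sign in all 14 alternatives.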
